A study of Homo sapiens with 8 samples.

Results

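Gene expression in HT29 cells after treatment with an anti-CD24 monoclonal antibody was set against that of untreated HT29 cells. The comparison used 2 of the 8 arrays of the study. They were the HT29 array labelled as antibody-treated and the HT29 array whose label names no treatment, called untreated here. HT29 is a widely used line from a human colorectal carcinoma. The treated culture was kept for 72 h with the antibody SWA11, diluted 1 to 40, as the labels state. No antibody is named for the untreated culture. No array of an isotype or other control antibody was analysed here, so effects of CD24 binding and of antibody exposure cannot be told apart. Neither sample carried an shRNA vector. The other arrays hold Colo357 pancreatic cancer cells with and without the same antibody, 1 array each, and 4 HT29-derived clones: 1 with a GFP-directed shRNA, 1 with 1 vector and 2 with 2 vectors of CD24-directed shRNA. With 1 array a side there is no replicate error and no test, and every difference below describes 2 arrays. Because these are bulk RNA samples, fewer cells of a type and less RNA per cell cannot be told apart.

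CD24 is a small, heavily glycosylated protein held in the outer membrane by a glycosylphosphatidylinositol anchor. It has no cytoplasmic tail, and its signals run through membrane partners such as Src family kinases. It is expressed on many epithelial cancers, including those of the colon and pancreas, and on B cells and neutrophils, and serves as a ligand for Siglec-10 on macrophages. In the intestinal epithelium, Wnt signalling keeps crypt cells in a proliferating progenitor state, and cells that leave the crypt stop dividing and switch on enterocyte or goblet genes.

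In antibody-treated HT29 cells, 12 of 29 interferon-stimulated genes, 3 of 11 natural killer and T cell ligands, 4 of 8 keratins and 11 of 29 serpins, plasminogen activators and proteases read at least 2-fold higher than in untreated cells. At least 2-fold lower were 8 of 19 Wnt target and progenitor genes, 12 of 60 mitotic genes and 11 of 54 splicing and chromatin factors. The scale is the MAS5 intensity of a probe set, which combines its perfect-match and mismatch probes, and differences are given as log2(intensity + 10) of the antibody-treated array minus that of the untreated array. A value of 1 is a 2-fold difference, and the added 10 makes differences of dim genes smaller. Each gene was read from its brightest single-symbol probe set, and 6692 of 11963 genes lay above a filter at an intensity of about 42.0, the median probe set of the 2 arrays. Of these, 337 genes were at least 2-fold higher (5.04%) and 489 at least 2-fold lower (7.31%), 826 in all (12.3%). The excess of lower genes was not kept under every scaling: 401 of 752 genes at 2-fold were higher under quantile normalization, and 404 were higher and 399 lower under median scaling. Past 4-fold there were 43 higher and 25 lower genes. The median over all 6692 genes was -0.05, and 3129 genes (46.8%) had a positive difference. The 2 arrays correlated at 0.96 over 22215 probe sets.

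**Figure D1:**
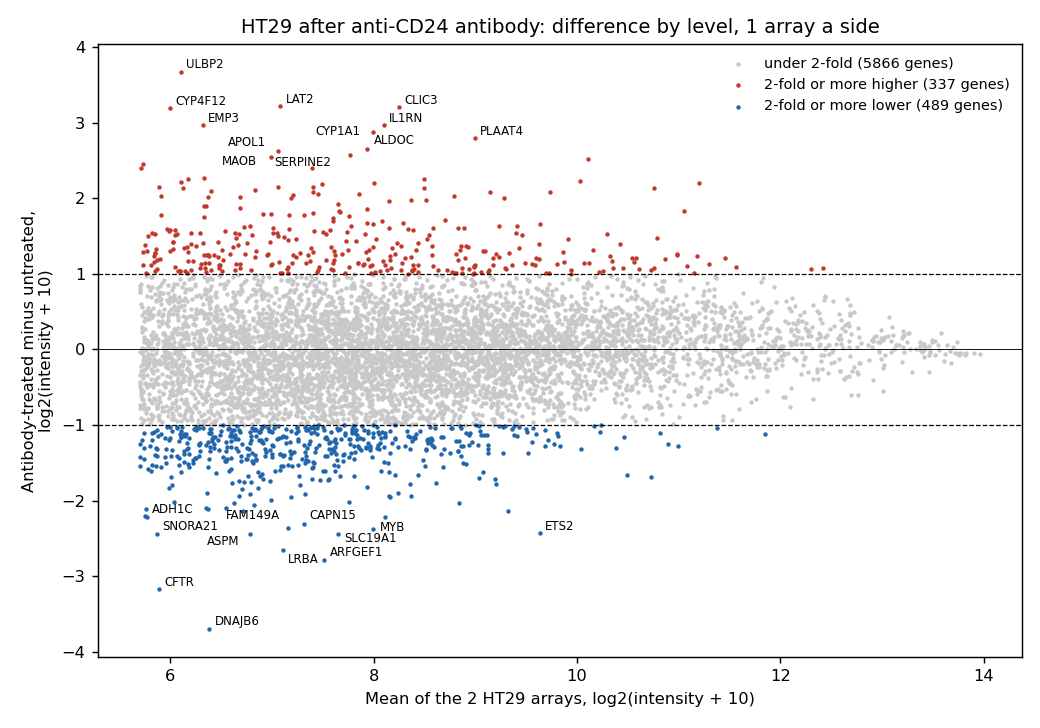
Difference between antibody-treated and untreated HT29 cells (y axis, log2) against the mean of the 2 arrays (x axis, log2(intensity + 10)), 1 point per gene. Red points are the 337 genes at least 2-fold higher and blue points the 489 at least 2-fold lower after antibody, grey points the remaining 5866, and the 12 largest differences in each direction are named.

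CD24 itself, at chr6:106969831-106976855 (GRCh38.p14), was read by 6 probe sets, and all 6 were lower after antibody. The brightest read 4089.7 in antibody-treated cells and 6425.1 in untreated cells, so 63.7% of its intensity was left. The second brightest read 3885.8 and 5475.3, in the same order. The other 4 ranged from 891.7 to 1898.9 in antibody-treated cells and from 1236.7 to 2104.8 in untreated cells. The mean log2 difference was -0.41, with a range of -0.65 to -0.15 over the probe sets, and none reached 2-fold. CD24 has near-identical processed copies elsewhere in the genome, and 3 of its probe sets are of the cross-hybridising _x_at type, so the gene's own level is uncertain. In Colo357 cells the mean over the same probe sets was 0.12.

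The labelled cell type was checked against its markers. KRT18 (14357.4 in antibody-treated and 14767.1 in untreated cells), EPCAM (4068.3 and 4027.6) and E-cadherin, CDH1 (2209.7 and 2172.8), were bright on both arrays, and 10 of 14 colorectal epithelial markers lay above the filter. The intestinal transcription factors CDX2 (1.8 and 3.2) and CDX1 (3.7 and 6.5) read near background. Of 15 leukocyte markers 13 were under the filter, and their summed intensity of 5654.4 in antibody-treated and 4709.4 in untreated cells was almost all lysozyme, LYZ (5402.3 and 4504). The pan-leukocyte marker PTPRC read 24.2 and 0.8. Of 14 fibroblast and endothelial markers 13 were under the filter (sums of 195.6 and 213.4). Of 8 pancreatic exocrine markers 7 were, with sums of 905.9 and 476.6 carried by the trypsinogen PRSS2 (780.9 and 394.3).

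Spiked-in RNA and gene length moved with the treatment, and their part in the results below was not tested. The poly-A control RNA dap, added to a sample before labelling, read 595.9 on the antibody-treated array and 277.1 on the untreated array. Lys read 68.5 and 19.9, phe 109.2 and 80.6, and thr 190.6 and 105.5. The hybridisation controls, added after labelling, lay within 0.925 to 1.12 times of each other. The ratio of the 3′ to the 5′ probe set of ACTB was 1.08 in antibody-treated and 1.17 in untreated cells. On the clone arrays it was 1.06 (GFP), 1.07 (1 vector), and 1.77 and 1.06 (2 vectors). The 2-vector clone at 1.77 also had the brightest 18S ribosomal RNA control, at 434.8, while the other HT29-derived arrays read 23.4 to 48. That clone is part of every clone range below, and its RNA quality was not tested. Genes that cover a long stretch of the genome (introns included) read lower after antibody, and short genes slightly higher. The median span was 13616.5 bases for the genes at least 2-fold higher, 94445 for those at least 2-fold lower and 29127.5 for all genes above the filter. In the decile of shortest genes 75 were higher and 15 lower, with a median difference of 0.24. In the decile of longest genes 6 were higher and 171 lower, with a median of -0.60. The gradient was present at every expression level: the longest genes had medians of -0.55, -0.55 and -0.29 among low, middle and highly expressed genes. Across 6690 genes, which are not independent and share both arrays, Spearman's rho between span and difference was -0.41 in HT29 and -0.45 in Colo357.

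The same measure was taken on all 6 HT29-derived arrays, as each array's deviation from their mean, longest decile minus shortest decile. It was -0.35 on the antibody-treated array and 0.46 on the untreated array. The clones lay on both sides: -0.58 for the 1-vector clone, -0.63 and 0.34 for the 2-vector clones and 0.69 for the GFP clone. The 3 arrays with a negative value had dap readings of 595.9, 667.5 and 916.9, and the 3 with a positive value had readings of 275.2, 277.1 and 405.5. An alternative chosen after these values were seen subtracted from each gene the median difference of its span decile. It left 341 genes at least 2-fold higher (5.1%) and 254 lower (3.8%), of which 259 and 225 were among the genes counted above. The counts after this subtraction are given below for the gene groups in which they differed. They are to be read beside 5.1% of all genes higher and 3.8% lower.

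**Figure D2:**
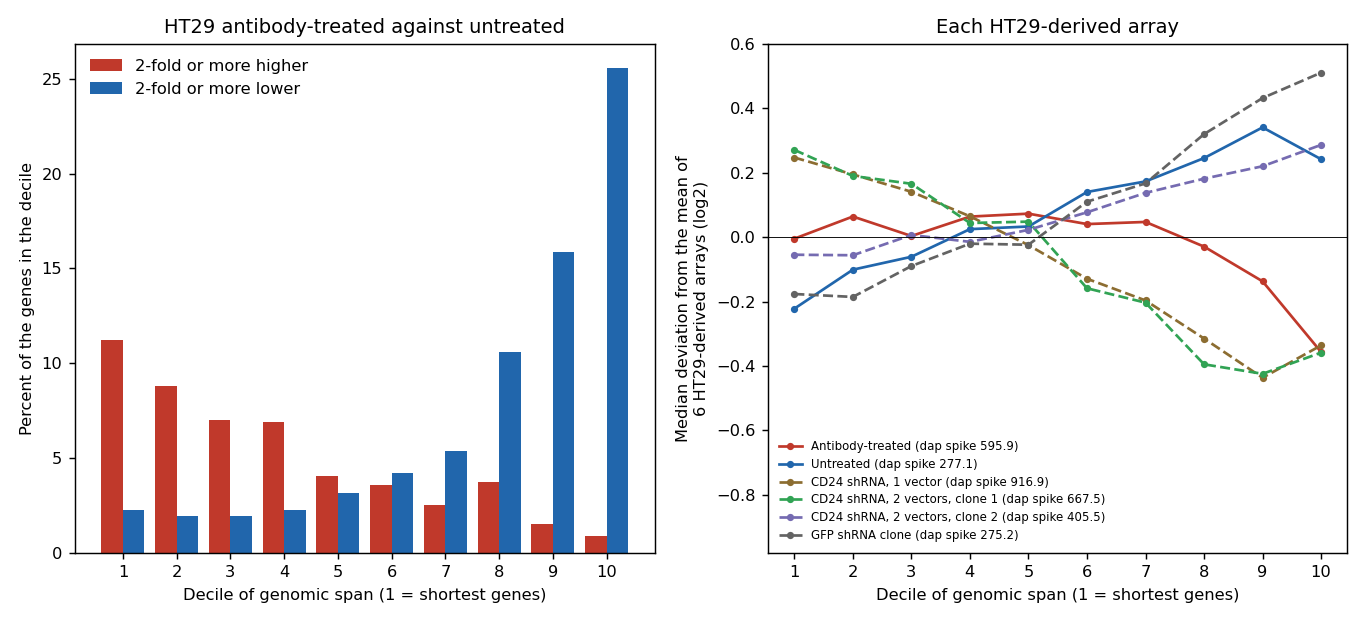
Left, percent of genes at least 2-fold higher (red) and lower (blue) in antibody-treated against untreated HT29 cells, by decile of genomic span; the lower share is 25.6% in the longest decile. Right, median deviation of each HT29-derived array from the mean of the 6 arrays (log2) by the same deciles, with each array's dap spike intensity in the legend; the antibody-treated array lies below 0 from decile 8 on and the untreated array above 0 from decile 4 on.

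Interferon-stimulated genes carry out the antiviral program that interferon receptors start through STAT and IRF transcription factors. Of 29 listed genes above the filter, 12 were at least 2-fold higher after antibody (41.4%, against 5.04% of all genes) and 1 was lower, 26 had a positive difference, and the median was 0.80. The counts were 13 and 0 and the median 0.78 after the span medians were subtracted. The ubiquitin-like protein ISG15 read 5045.3 in antibody-treated and 1091.6 in untreated cells, a difference of 2.20. OASL, an inhibitor of viral replication, read 777.9 and 154.6, and its probe sets gave 2.26 and 2.79. IFI6, an endoplasmic reticulum protein that restricts viruses, read 148.4 and 23.1 (2.26). OASL lay above all 5 other HT29-derived arrays, whereas the clones spanned 973.1 to 5533.5 for ISG15 and 14.6 to 534.7 for IFI6. IFIT1, which binds foreign RNA caps, read 374.4 and 74.6 (2.18). The exonuclease ISG20 read 338.2 and 72.3, with probe sets at 2.08 and 3.81. IFI35 read 462.4 and 104.1 (2.05). Untreated cells were the lowest of the 6 arrays for 9 of the 29 genes, against 17.1% of all genes. Antibody-treated cells were the highest for 2, against 16.8% of all genes, so most antibody-treated values lay within the spread of the clones. Of the 3 genes with a negative difference, only EIF2AK2, the kinase activated by viral RNA duplexes, was at least 2-fold lower. It read 137.7 in antibody-treated and 286.2 in untreated cells, just past 2-fold, with both of its probe sets lower. In Colo357 cells 5 of the same 29 genes were at least 2-fold higher, 1 lower, and the median was 0.04. Of all genes 9.86% were higher and 12.3% lower in Colo357.

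The promoters of 4 of these genes are shown because their mRNA levels differed by about 4-fold and the motif of the interferon-stimulated response element was found in each. They are RefSeq sequences of GRCh38.p14, from upstream of the annotated start to just beyond it, printed 5′ to 3′ on the gene's strand. Capitals mark that motif, GAAA followed after any 2 bases by GAAA, on either strand, with overlapping matches joined. ISG15 is at chr1:1013247-1013546 (plus strand), IFI6 at chr1:27672143-27672442 (minus), IFIT1 at chr10:89392373-89392672 (plus) and IFI27 at chr14:94110486-94110785 (plus).
ISG15: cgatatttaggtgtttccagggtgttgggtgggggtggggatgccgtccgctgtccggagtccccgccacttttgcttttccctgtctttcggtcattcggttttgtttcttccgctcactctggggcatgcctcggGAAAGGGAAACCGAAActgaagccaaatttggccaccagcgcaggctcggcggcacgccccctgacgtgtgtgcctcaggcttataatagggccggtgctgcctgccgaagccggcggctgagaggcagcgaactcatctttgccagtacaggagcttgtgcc
IFI6: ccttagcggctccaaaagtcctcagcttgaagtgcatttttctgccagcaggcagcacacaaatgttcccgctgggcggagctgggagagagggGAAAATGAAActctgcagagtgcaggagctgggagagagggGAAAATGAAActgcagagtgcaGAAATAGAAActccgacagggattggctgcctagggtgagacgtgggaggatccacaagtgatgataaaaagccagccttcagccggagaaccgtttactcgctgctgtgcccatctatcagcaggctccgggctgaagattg
IFIT1: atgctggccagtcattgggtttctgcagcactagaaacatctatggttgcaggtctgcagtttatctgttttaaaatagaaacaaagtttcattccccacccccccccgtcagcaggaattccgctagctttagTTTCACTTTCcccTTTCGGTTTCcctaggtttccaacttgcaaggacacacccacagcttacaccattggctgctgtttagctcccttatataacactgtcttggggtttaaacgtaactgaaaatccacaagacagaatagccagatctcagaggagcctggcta
IFI27: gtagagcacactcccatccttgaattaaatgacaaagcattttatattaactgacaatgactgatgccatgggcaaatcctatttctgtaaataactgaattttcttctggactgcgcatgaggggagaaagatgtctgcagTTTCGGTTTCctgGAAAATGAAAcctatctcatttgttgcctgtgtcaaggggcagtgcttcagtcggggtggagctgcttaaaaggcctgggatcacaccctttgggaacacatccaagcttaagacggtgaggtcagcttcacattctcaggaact
IFI27, a mitochondrial interferon-induced protein, read 884.8 in antibody-treated and 208.7 in untreated cells (2.03). The motif was in 3.65% of 27305 RefSeq promoters of the same length and in 2.79% of the 5628 matched genes above the filter. It was in 11 of 264 genes at least 2-fold higher (4.17%) and in 13 of 413 at least 2-fold lower (3.15%). Among the listed interferon-stimulated genes it was in 18 of 25 matched promoters (72%): in 7 of the 10 that were at least 2-fold higher (70%) and in 11 of the 15 that were not (73.3%). A match describes these letters in this window and is no evidence of binding.

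Of 13 interferon receptors and transcription factors, 2 were higher (15.4%) and 1 lower (7.69%), against 5.04% and 7.31% of all genes. IRF9, the DNA-binding subunit of the interferon-activated factor, read 225.3 in antibody-treated and 76.4 in untreated cells (1.45). IRF7, a regulator of type I interferon genes, read 618.7 and 302.3 (1.01), and IRF1 306 and 214.7 (0.49). IRF2, which represses many of the same promoters, read 16.2 and 102.8 (-2.11), the lowest antibody-treated and the highest untreated value among the 6 HT29-derived arrays. IRF2 passed the filter through its untreated reading, and did not pass it under quantile normalization or with an added constant of 1. After the span medians were subtracted 1 of the 13 was higher and 1 lower. MHC class I presentation had 15 of 18 genes positive, a median of 0.58 and 3 genes at least 2-fold higher (16.7%). These were the peptide transporter TAP1 (197.2 in antibody-treated and 41.4 in untreated cells, 2.01) and the immunoproteasome subunits PSMB9 (137.8 and 33.7, 1.76) and PSMB8 (297 and 109.8, 1.36). TAP1 and PSMB9 read below the filter in untreated cells and passed it through their antibody-treated readings. The light chain B2M read 7125.3 and 4343.3 (0.71), HLA-C 3007.4 and 2024.9 (0.57) and HLA-B 2003.2 and 1262.9 (0.66). All 3 were under 2-fold, and HLA probe sets can share targets between genes of the family.

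Ligands that natural killer and T cells recognise were higher for 3 of 11 genes above the filter (27.3%, against 5.04% of all genes) and lower for 0. ULBP2 (chr6:149942014-149949235), a ligand of the activating receptor NKG2D, read 235.8 in antibody-treated and 9.3 in untreated cells, the largest positive difference on this scale (3.67). Its untreated reading lies below the filter, so the size depends on the added constant: it was 4.52 with a constant of 1 and 2.27 with a constant of 50, where CLIC3, at 2.78, was larger. The 4 clones read 80.2 to 119.5, so the antibody-treated value lay above and the untreated value below every clone. MICA, another NKG2D ligand, read 450.7 and 172.6 (1.34), above the clones' 151.8 to 333.6. The integrin ligand ICAM1 read 178.9 and 56.1 (1.51) on its brightest probe set, and its 3 probe sets ranged from 0.26 to 1.51. All 3 genes were at least 2-fold higher in Colo357 as well, at 2.12, 1.41 and 2.21. Of the 4 APOBEC3 and APOL genes above the filter 3 were higher. The cytidine deaminase APOBEC3B read 543.1 in antibody-treated and 109.8 in untreated cells (2.21), the trypanolytic apolipoprotein APOL1 321.9 and 43.9 (2.62) and APOL2 148.2 and 32.3 (1.90).

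**Figure D3:**
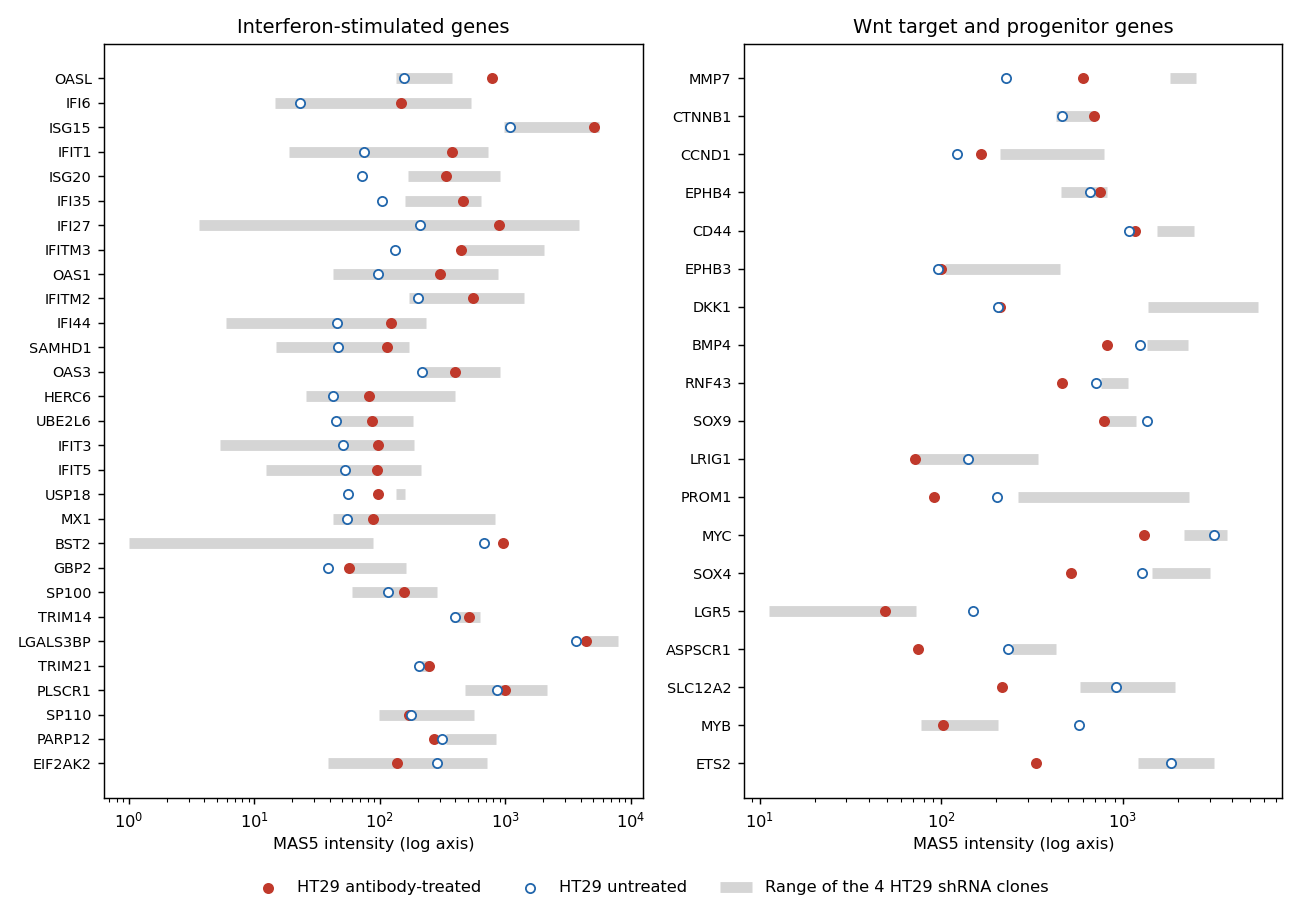
MAS5 intensity (log axis) of the 29 interferon-stimulated genes (left) and the 19 Wnt target and progenitor genes (right) above the filter, in antibody-treated (filled red) and untreated (open blue) HT29 cells, with the range of the 4 HT29 shRNA clones as a grey bar. Antibody-treated cells lie to the right for 26 of 29 interferon-stimulated genes and to the left for 12 of 19 Wnt target and progenitor genes.

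The aryl hydrocarbon receptor is a ligand-activated transcription factor that induces xenobiotic-metabolising enzymes. CYP1A1, its classical target, read 682.8 in antibody-treated and 84 in untreated cells (2.88), and the clones read 16.4 to 117.1. In Colo357 cells it read 207.6 with antibody and 0.8 without. ALDH1A3, which makes retinoic acid, read 815.3 and 261.8 (1.60), and ALDH3A1 1163 and 498.4 (1.21). These were the 3 of 9 genes of the pathway that were at least 2-fold higher (33.3%, against 5.04% of all genes), and 0 were lower. CYP1B1, likewise a classical target, read 241.7 and 205.7 (0.22), NQO1 7701.3 and 5618.6 (0.45), and the receptor AHR itself 141.6 and 261.8 (-0.84). The list's median was 0.22, and it lay between 0.0892, after the span medians were subtracted, and 1.21, with a filter at the 75th percentile. The CYP1A1 promoter at chr15:74725479-74725778 (minus strand) is shown because this gene led the list, with the core of the receptor's response element, GCGTG, in capitals.
CYP1A1: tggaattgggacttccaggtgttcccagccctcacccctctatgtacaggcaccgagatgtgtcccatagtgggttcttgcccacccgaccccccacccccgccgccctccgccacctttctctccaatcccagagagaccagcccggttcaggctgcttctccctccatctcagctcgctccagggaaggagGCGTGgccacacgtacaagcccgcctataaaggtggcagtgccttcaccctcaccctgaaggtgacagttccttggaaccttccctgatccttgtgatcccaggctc
This short motif was in 36.3% of all RefSeq promoters, in 52.7% of matched genes above the filter, in 43.6% of genes at least 2-fold higher and in 55.0% of genes at least 2-fold lower.

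NRF2 target and detoxification genes had 27 of 37 members positive and a median of 0.33. Of the 37, 5 were higher (13.5%) and 2 lower (5.41%), against 5.04% and 7.31% of all genes. The counts were 6 and 2 after the span medians were subtracted. CYP4F12, a fatty acid hydroxylase, read 183 in antibody-treated and 11.2 in untreated cells (3.19), and the clones did not exceed 10.7. MAOB, the mitochondrial monoamine oxidase, read 295.9 and 42.6 (2.54). The clones read 232.5 to 720.4 for MAOB, so the untreated array was the lowest of the 6. The aldo-keto reductases AKR1C2 (2637.4 and 450.9, 2.52) and AKR1C1 (3616 and 812.1, 2.14) were higher on every probe set above the filter, and the clones read at most 106.8 and 170.9. Their probe sets are of the _x_at type and the genes are near-identical, so the signal cannot be divided between them. The alcohol dehydrogenase ADH1C read 15.3 and 107.5 (-2.22), and SLC7A11, the cystine transporter that feeds glutathione synthesis, 56.6 and 208 (-1.71). ADH1C passed the filter through its untreated reading, and did not pass it under quantile normalization or with an added constant of 1. The same list had a median of -0.70 in Colo357, with 1 gene higher and 14 lower, against 9.86% and 12.3% of all genes there.

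Of 14 enterocyte genes above the filter 12 were positive, 4 at 2-fold or more (28.6%, against 5.04% of all genes) and 0 lower, with a median of 0.36. With the span medians subtracted 5 were higher. Keratin 20, KRT20, a marker of differentiated intestinal epithelium, read 4015.5 in antibody-treated and 1117.1 in untreated cells (1.84). Villin, VIL1, which bundles actin in microvilli, read 1408.3 and 439.3 (1.66), and the microvillar cadherin CDHR5 103.6 and 29.4 (1.53). Antibody-treated and untreated cells both exceeded all clones for VIL1 (25 to 248.5) and CDHR5 (2 to 3.8), and antibody-treated cells lay inside their range for KRT20 (2761.4 to 4799.8). The clones also read low for CDH1, at 1.4 to 15.4. CEACAM6, an adhesion molecule, read 82.2 and 26.7 (1.33), and its second probe set differed by 0.26. CDHR5 and CEACAM6, among the genes counted as higher, read below the filter in untreated cells and passed it through their antibody-treated readings. All 13 goblet and secretory genes above the filter were positive, with a median of 0.56. The trefoil peptide TFF1 (163.6 in antibody-treated and 50.4 in untreated cells, 1.52) and the transmembrane mucin MUC13 (421.8 and 180.4, 1.18) reached 2-fold. Among 16 intestinal transcription factors KLF4, which restrains proliferation in the upper crypt, was the only one at 2-fold, at 187.6 and 43.9 (1.87), and the median of the 16 was -0.30.

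Wnt target and intestinal progenitor genes read lower. Of 19 above the filter 8 were at least 2-fold lower, against 7.31% of all genes, 1 was higher, and the median was -0.78. The list holds ASPSCR1 (74.1 and 232.6), which is no established Wnt target. Without it 7 of 18 were lower and the median was -0.71. The transcription factor ETS2 read 333 in antibody-treated and 1835.9 in untreated cells (-2.43), with its second probe set at -0.84. MYB, which crypt progenitors need, read 101.8 and 569.6 (-2.37), and the cotransporter SLC12A2 216.7 and 912.5 (-2.02). ETS2 and SLC12A2 were below every other HT29-derived array, whereas for MYB the untreated value was above the clones' 77.3 to 204.6. LGR5, the R-spondin receptor that marks crypt stem cells, read 48.9 and 149.6, and its probe sets gave -1.44 and -0.74. SOX4 read 517.2 and 1269.8 (-1.28), and its 4 probe sets above the filter ranged from -2.07 to -1.05. MYC read 1303.7 in antibody-treated and 3178.5 in untreated cells (-1.28), below the clones' 2176 to 3750. The stem cell surface glycoprotein PROM1 read 90.6 and 201.8 (-1.07). Against this direction, the matrix metalloprotease MMP7 read 599.6 and 227 (1.36), and the Wnt targets CCND1 (164.3 and 122.6, 0.39) and DKK1 (210.6 and 206.2, 0.03) differed by less than 2-fold. Antibody-treated cells were the lowest of the 6 arrays for 9 of the 19 genes, against 17.4% of all genes. After the span medians were subtracted 6 were lower (against 3.8% of all genes), 1 was higher and the median was -0.69. ASPSCR1, at -1.45 after the subtraction, is among these 6. In Colo357 the same genes had a median of 0.01, with 0 at least 2-fold lower and 1 higher, against 12.3% and 9.86% of all genes there.

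Of 60 mitotic genes 45 were negative, 12 were at least 2-fold lower (20%, against 7.31% of all genes) and 0 higher, with a median of -0.38. ASPM, a spindle pole protein, read 37.3 in antibody-treated and 247.7 in untreated cells (-2.45), the condensin subunit SMC4 152.4 and 488.6 (-1.62) and the hyaluronan receptor HMMR 206.2 and 585.2 (-1.46). The proliferation marker MKI67 read 429.1 and 729.3 (-0.75), with its 4 probe sets between -1.36 and -0.38. For 36 of the 60 genes the untreated array was the highest of the 6, as it was for 17% of all genes. Of the 12 lower genes 11 came from the longer-spanning genes, whose 31 members had a median of -0.75, while the 29 shorter members had a median of -0.01. After the span medians were subtracted 9 were lower (against 3.8% of all genes) and the median was -0.37. The 47 G1/S and DNA replication genes had a median of 0.07, with 3 higher (6.38%, near the 5.04% of all genes) and 0 lower. These were cyclin E2, CCNE2 (255.7 in antibody-treated and 94.5 in untreated cells, 1.35), the transcription factor E2F1 (427.4 and 176.2, 1.23) and cyclin D3, CCND3 (1689.5 and 825.9, 1.02). Each of these 3 exceeded all other HT29-derived arrays. CDKN1A, the p21 inhibitor of cyclin-dependent kinases, read 377.2 and 63.1 (2.41). The clones read 296.5 to 1017.4, so here the untreated array was the lowest of the 6. Among 15 cell cycle inhibitors 2 were higher and 2 lower (13.3% each). Among 20 p53 target genes 3 were higher (15%) and 1 lower (5%), with a median of 0.37.

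Keratins, which form the intermediate filaments of epithelia, had the highest median of the lists with at least 5 genes, 0.95 over 8 genes. Of the 8, 4 were higher (50%, against 5.04% of all genes), or 3 after the span medians were subtracted. The rank of the keratins depends on the filter: their median was 0.33 without one and 0.67 with a filter at the 75th percentile, below the 0.77 and 0.86 of interferon-stimulated genes. KRT15 read 166.2 in antibody-treated and 26.6 in untreated cells (2.27), KRT13 1150.4 and 265.3 (2.08) and KRT19 7956.1 and 3780.2 (1.07). KRT13 and KRT15 exceeded the clones, at 68.7 to 99.4 and 37.9 to 88.3, and in Colo357 both differed by less than 2-fold (-0.30 and -0.11). Of 29 serpins, plasminogen activators and proteases 26 were positive, 11 at 2-fold or more (37.9%) and 0 lower, with a median of 0.86, and with 10 higher and a median of 0.68 after the span medians were subtracted. The thrombin and plasminogen activator inhibitor SERPINE2 read 521.2 and 79.7 (2.57), the metalloprotease inhibitor TIMP2 110.4 and 12.8 (2.40) and the cystatin CST6 271.8 and 53.5 (2.15). The clones lay at 361.2 to 600.9, 144.2 to 401.2 and 416.8 to 1219.1, so for these 3 genes the untreated array was the lowest of the 6. TIMP2 passed the filter through its antibody-treated reading, and did not pass it with an added constant of 1. The secreted inhibitor SLPI read 388.2 in antibody-treated and 107.3 in untreated cells (1.76) against 7.6 to 59.4 in the clones. The urokinase receptor PLAUR read 735.8 and 277.6 (1.37), with all 3 probe sets between 1.37 and 1.61. S100 proteins and annexins had 18 of 19 genes positive and a median of 0.43, with the calcium-binding S100A2 at 1231.6 and 301.1 (2.00) and ANXA9 at 426.9 and 127.3 (1.67).

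**Figure D4:**
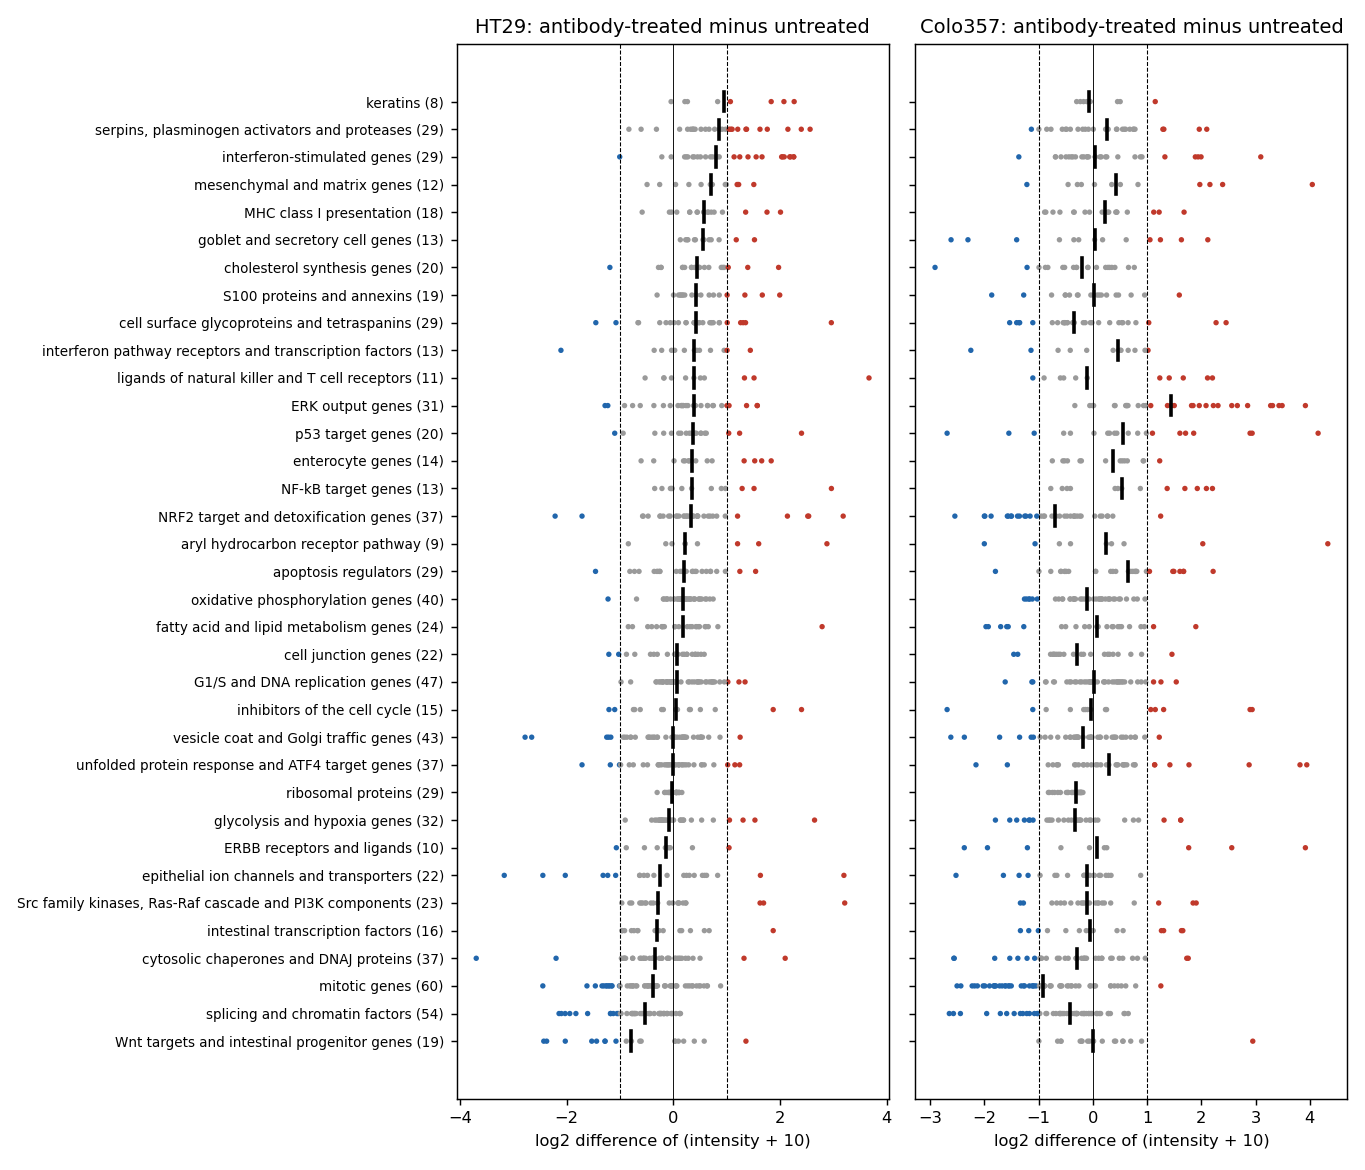
Differences (log2) of every gene above the filter in the 35 pathway lists with at least 5 such genes, for HT29 (left) and Colo357 (right), antibody-treated minus untreated, 1 array a side. The number of genes is in parentheses, black bars are list medians, and red and blue points are genes at least 2-fold higher and lower. In HT29 the keratins, at 0.95, are at the top and the Wnt target and progenitor genes, at -0.78, at the bottom.

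Splicing and chromatin factors read lower as a group: 50 of 54 were negative and the median was -0.53. At least 2-fold lower were 11 (20.4%, against 7.31% of all genes), and 0 were higher. SF3B3, a core subunit of the U2 small nuclear ribonucleoprotein, read 294.7 in antibody-treated and 1334.5 in untreated cells (-2.14), outside the clones' 487.2 to 1122.9 on both sides. The chromatin remodelling factor BPTF read 35.3 and 184 (-2.10), the splicing regulator MBNL1 159.2 and 639.4 (-1.94) and the remodeller ATRX 23.6 and 109.1 (-1.83). After the span medians were subtracted 9 were lower (against 3.8% of all genes) and the median was -0.43. In Colo357 the list's median was -0.42, with 14 lower, against 12.3% of all genes there. Ion channels and transporters had 2 genes higher (9.09%, against 5.04% of all genes) and 6 lower (27.3%) among 22, and 2 and 3 after the subtraction. The chloride channel CFTR read 9.7 and 167.2 (-3.17) on the 1 of its 4 probe sets above the filter, and the folate carrier SLC19A1 76.3 and 460 (-2.45). CFTR passed the filter through its untreated reading, and did not pass it with an added constant of 1. The chloride channel protein CLIC3 read 911 and 90.2 (3.20). FXYD3, a regulator of the sodium pump, read 1053.5 and 332.6 (1.63), but its second probe set differed by 0.03. Among 37 cytosolic chaperones 2 were higher and 2 lower (5.41% each, near the shares of all genes). DNAJB6 (chr7:157337004-157417439), a co-chaperone that suppresses aggregation, read 13.2 in antibody-treated and 290.4 in untreated cells, the largest negative difference on this scale (-3.69). Its antibody-treated reading lies below the filter, and the difference was -4.36 with an added constant of 1 and -2.43 with 50. The clones read 417.8 to 497.5. In the other direction the testis-enriched chaperone HSPA2 read 165.2 and 30.9 (2.10).

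Genes of signalling from the membrane gave mixed counts, to be read beside 5.04% of all genes higher and 7.31% lower. Once the span medians were subtracted these shares were 5.1% and 3.8%. Among 23 Src family kinase, Ras-Raf and PI3K genes 3 were higher, 0 lower and the median was -0.29. The adaptor LAT2 read 402.4 in antibody-treated and 34.4 in untreated cells (3.22), the kinase ERK1, MAPK3, 478.2 and 140.9 (1.69) and the small GTPase RRAS 1190.5 and 378.4 (1.63). LAT2 lay inside the clones' 309.9 to 635.5, with the untreated array lowest. ERK output genes had 5 higher and 2 lower among 31, and a median of 0.38. JUNB read 569.5 and 184.3 (1.58), and the ERK phosphatase DUSP5 103.7 and 28.2 (1.57), while SPRY2, a feedback inhibitor, read 114.4 and 281.2 (-1.23). After the span medians were subtracted 3 were higher and 2 lower, with a median of 0.14. The same list had a median of 1.45 in Colo357, with 18 higher and 0 lower, against 9.86% and 12.3% of all genes there. NF-kB target genes had 3 of 13 higher (4 after the subtraction) and 0 lower, led by the interleukin-1 receptor antagonist IL1RN at 757.9 and 88.3 (2.97), with its 3 probe sets above the filter between 1.75 and 2.97. Cell surface glycoproteins and tetraspanins had 5 of 29 higher, 2 lower and a median of 0.42, or 6 higher and 0 lower after the subtraction, with the membrane protein EMP3 at 213.2 and 18.6 (2.96). Apoptosis regulators had 2 of 29 higher (6.90%) and 1 lower (3.45%), or 3 and 1 after the subtraction. Caspase-2, CASP2, was higher on all 5 of its probe sets, by 1.23 to 1.80, and the brightest read 293 in antibody-treated and 117.5 in untreated cells.

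Cholesterol synthesis genes had 16 of 20 positive, 3 higher, 1 lower and a median of 0.44, with the sterol reductase TM7SF2 at 715.9 in antibody-treated and 174.6 in untreated cells (1.98). Mesenchymal and matrix genes had 3 of 12 higher, or 5 after the span medians were subtracted, and a median of 0.71, which was 0.29 without the filter. Glycolysis and hypoxia genes had 4 of 32 higher, among them the aldolase ALDOC at 601.2 and 87.4 (2.65), and a median of -0.08. The 24 fatty acid and lipid genes had 1 at 2-fold, the phospholipase PLAAT4 at 1334.3 and 184.2 (2.79). After the subtraction 2 of these 24 lipid genes were higher, and 2 cholesterol synthesis genes were higher and 1 lower. The unfolded protein response and ATF4 list had 3 higher and 3 lower of 37 (8.11% each), and vesicle coat and Golgi traffic genes 1 higher (2.33%) and 5 lower (11.6%) of 43. Cell junction genes had 2 of 22 lower (9.09%), and ERBB receptors and ligands 1 higher and 1 lower of 10. Without the subtraction the counts of this paragraph stand beside 5.04% of all genes higher and 7.31% lower. With it they stand beside 5.1% and 3.8%. After the subtraction 1 vesicle coat gene was higher and 2 were lower, and 0 genes of the junction and ERBB lists were at 2-fold. Ribosomal proteins had 0 of 29 at 2-fold in either direction (median -0.02), and oxidative phosphorylation genes 1 lower of 40 (median 0.19).

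Agreement between probe sets of a gene was checked next, since a gene's probe sets match different stretches of its transcripts. They share the RNA and the arrays and are not replicates. Of 2224 genes with at least 2 single-symbol probe sets above the filter, 35 were at least 2-fold higher on every probe set (1.57%) and 76 at least 2-fold lower on every one (3.42%). Under quantile normalization the counts were 41 and 43. Of the 337 higher genes 75 had such a second probe set. Of these, 71 had the same sign throughout, but only 34 were at 2-fold on all probe sets. Of the 489 lower genes 179 had one, 166 kept the sign and only 76 were at 2-fold on all. The 12 largest of the genes higher on every probe set included IL1RN, AKR1C2, OASL, AKR1C1, ISG20 and CAV2, a caveolin at 227.7 in antibody-treated and 45 in untreated cells (2.11). PDLIM7, a cytoskeletal adaptor, read 371.9 and 97.4 (1.83), and the ubiquitin ligase adaptor KLHL22 226.2 and 58.1 (1.79). ALDH3B1 read 745.7 and 220.5 (1.71), LAT 184.4 and 52.5 (1.64), the glutaredoxin GLRX 550.6 and 176.6 (1.59) and the actin-binding PALLD 215.9 and 67.5 (1.54). Antibody-treated cells were the highest of the 6 HT29-derived arrays for 8 of these 12, which were chosen for reading higher than the untreated array. The 12 largest lower genes included the ARF exchange factor ARFGEF1 at 59.9 in antibody-treated and 469.7 in untreated cells (-2.78), LRBA at 44.9 and 335.7 (-2.65) and FAM149A at 52.8 and 313.9 (-2.37). SLC19A1, SF3B3, MBNL1 and ATRX were among them too. FRYL, PHIP, DIAPH2, NIPBL and PHF3 were at -1.89 to -2.09. These 12 lower genes had a median span of 179958 bases and the 12 higher ones 20791. Of the 76 genes lower on every probe set, 37 were in the longest decile and 16 in the next. After the span medians were subtracted, 32 genes were higher and 25 lower on every probe set.

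**Figure D5:**
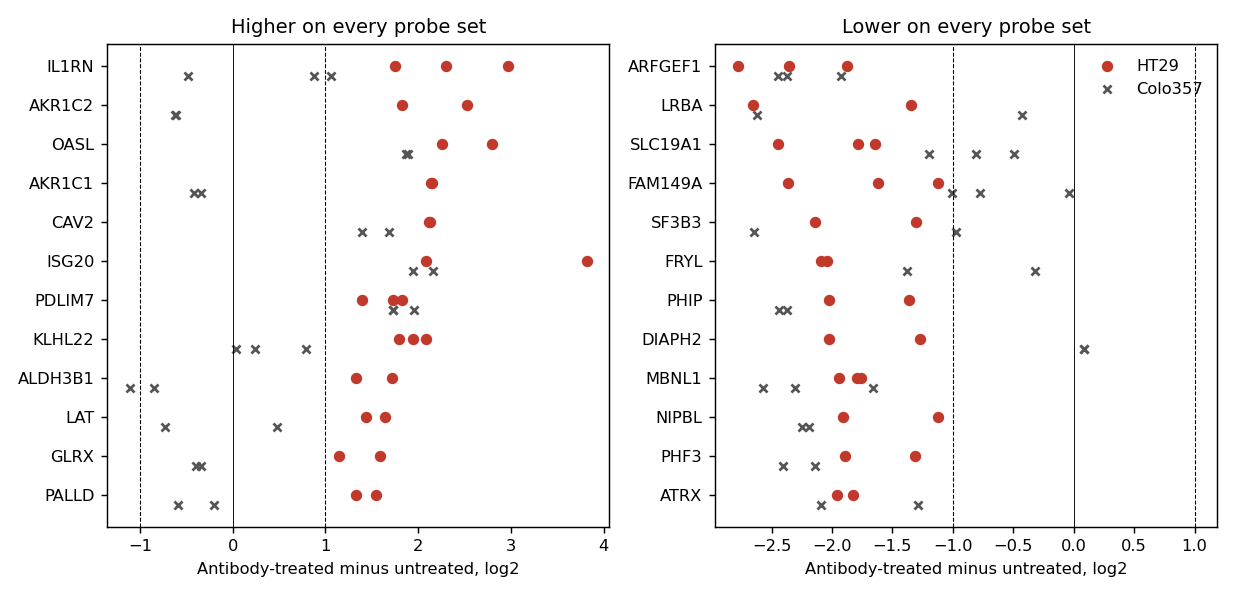
Difference (log2, antibody-treated minus untreated) on each probe set above the filter for the 12 largest genes that were at least 2-fold higher (left) or lower (right) on every probe set in HT29. Red circles are HT29 and grey crosses the same probe sets in Colo357; every red circle lies beyond the dashed 2-fold line, while all crosses of AKR1C1, AKR1C2, ALDH3B1, GLRX, PALLD and DIAPH2 and 1 cross each of LAT and IL1RN lie on the other side of 0.

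The position of the 2 arrays among the 6 HT29-derived arrays was counted for the genes at 2-fold. For 163 of the 337 higher genes the antibody-treated array was the highest, and for 191 the untreated array was the lowest, with both true of 42 and neither of 25. For 200 of the 489 lower genes the antibody-treated array was the lowest, and for 173 the untreated array was the highest, with both true of 28 and neither of 144. Over all 6692 genes the antibody-treated array was the highest for 16.8% and the lowest for 17.4%, and the untreated array the highest for 17% and the lowest for 17.1%. A 2-fold difference between 2 arrays favours such positions by itself, so these counts are descriptions. The clones differ from parental HT29 by more than their vectors' targets, and they are single clones. Among them is the 2-vector clone with the ACTB value of 1.77, whose span measure was -0.63. Positions were not counted without it.

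The same antibody in Colo357 cells was compared over the same 6692 genes, where 660 were at least 2-fold higher (9.86%) and 821 lower (12.3%). Of the 337 genes higher in HT29, 109 were also higher in Colo357, 32.3% of the HT29 genes and 16.5% of the Colo357 genes, and 13 were lower. Of the 489 lower in HT29, 267 were also lower in Colo357 (54.6% and 32.5%), and 4 were higher. The 2 pairs share no array, but the spike and span patterns were present in both: the dap control read 922.9 in antibody-treated and 274.8 in untreated Colo357 cells. CYP1A1 (2.88 in HT29 and 4.33 in Colo357), CDKN1A (2.41 and 2.94), APOBEC3B (2.21 and 3.25) and DNAJB6 (-3.69 and -2.56) differed the same way in both lines. ETS2 (-2.43 and -0.20), MYB (-2.37 and -0.06), SLC12A2 (-2.02 and -0.09), KRT13 (2.08 and -0.30) and IFIT1 (2.18 and 0.04) were at least 2-fold apart in HT29 alone. Whether any gene's difference itself differed between the lines was not tested.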

How the data were processed

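RNA of 8 cell samples was hybridised to Affymetrix human GeneChip arrays, per the labels. The authors deposited an intensity per probe set, not in logs, made with MAS5 per the submitters' processing notes, in a version not given in the sources used here. All 8 arrays had a 2% trimmed mean of 250.1, so no further scaling was applied. Of 22277 probe sets 62 are controls; of the others 19064 had 1 gene symbol, 1043 several and 2108 none, and 19052 symbols were updated through the Entrez ID to RefSeq GRCh38.p14. No gene was named from a probe set with several symbols.

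Differences were taken on log2(intensity + 10) with numpy 2.4.6 and pandas 2.3.3. A gene with several single-symbol probe sets was read from the brightest by mean over all arrays, and genes were kept where the mean of the 2 HT29 arrays exceeded the median of non-control probe sets. Precision is limited by 1 array a side, and no p-value is given. The comparison, the 36 pathway lists and the 4 marker lists were chosen with earlier results of these data known. The genes named are CD24, the 12 largest differences per direction, the 12 largest per direction among genes past 2-fold on every probe set, up to 6 members of a described list and members with a defining role. Other genes that set a count of 5 or fewer, or are singled out as not following a list, were chosen after their values were seen. Counting was tested on simulated data whose planted changes were well past 2-fold and in bright genes. That test does not cover calls near 2-fold or near the filter. The alternatives tried were quantile normalization, median scaling, added constants of 1 and 50, no filter, a stricter filter, the mean of probe sets, no _x_at probe sets and, added after the data were seen, subtraction of the span decile median.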

Additional observations from a re-analysis of the deposited data

Results flagged for a closer look

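For 7 named genes the antibody-treated array lay at least 2-fold from the untreated array in opposite directions in the 2 lines, and the difference between the lines was not tested. MAOB differed by 2.54 in HT29 and -2.54 in Colo357, and CYP4F12 by 3.19 and -1.99. APOL1 differed by 2.62 and -1.23. Among aldehyde dehydrogenases ALDH3A1 differed by 1.21 and -2.0 and ALDH3B1 by 1.71 and -1.11. ANXA9 differed by 1.67 and -1.27 and CYFIP2, a p53 target, by 1.04 and -1.55. All 7 read higher with antibody in HT29 and lower in Colo357, and 4 of them are oxidising enzymes of detoxification.

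The poly-A control RNAs, which lie outside the comparison of genes, read higher on the antibody-treated HT29 array than on the untreated one, dap by 2.15 times and lys by 3.44 times.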

How the results depend on the processing

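The direction of the counts depends on the scaling. Among the genes at 2-fold under each setting, 40.8% of 826 were higher as reported, 53.3% of 752 under quantile normalization, 50.3% of 803 under median scaling (404 and 399) and 57.3% of 595 after the span decile medians were subtracted (341 and 254). The share was 49.8% without the filter and 50.7% with a filter at the 75th percentile. The median of all genes was 0.0213 under quantile normalization, 0.0333 under median scaling and 0.0109 with the stricter filter, against -0.05 as reported. An added constant of 50 gave 456 genes (200 and 256), no filter 1557 (776 and 781) and the stricter filter 290 (147 and 143). Genes at 2-fold on every probe set numbered 111 as reported, 39 with a constant of 50, 21 with the stricter filter and 57 after subtraction of the span medians. Quantile normalization gave 41 higher and 43 lower on every probe set, against 35 and 76 as reported. A constant of 1 gave 379 and 571, the mean of probe sets 273 and 372, and leaving out _x_at probe sets 323 and 476.

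List medians kept their sign in 300 of 315 recomputations. The unfolded protein response list, -0.01 as reported, turned to 0.0145 under quantile normalization, 0.0728 under median scaling, 0.0109 without the filter, 0.0405 with the stricter filter and 0.00439 with the mean of probe sets. Under median scaling the glycolysis list turned from -0.08 to 0.00164 and ribosomal proteins from -0.02 to 0.0650, or 0.0398 with the mean of probe sets. Vesicle coat genes turned from 0.00405 to -0.0111 without the filter and -0.162 with the mean of probe sets. Cell cycle inhibitors turned from 0.05 to -0.186 with the stricter filter and with the mean of probe sets. With the stricter filter the Src, Ras and PI3K list was 0.0385 in place of -0.29, and ion channels and transporters 0.0662 in place of -0.24, or 0.0246 after subtraction of the span medians. The cause of these turns was not tested. Over all alternatives the median of interferon-stimulated genes stayed between 0.52 and 0.90, of serpins and proteases between 0.60 and 0.95, of Wnt target and progenitor genes between -0.88 and -0.63, of mitotic genes between -0.40 and -0.30, and of splicing and chromatin factors between -0.58 and -0.43. Of 1901 recomputed values of named genes, 1733 moved by less than the typical spread between probe sets of a gene (a log2 SD of 0.34). Part of this count was fixed in advance, since a filter leaves a gene's value unchanged and median scaling shifts all genes alike. These settings gave 229 values without the filter, 108 with the stricter filter and 229 under median scaling. Genes under the filter in a setting were left out. With a constant of 50, 72 values moved by more and 157 did not.

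No paired analysis was possible because each group has 1 array. Dim genes, near the filter at 42.0, have the least certain folds. Several named genes read below it on 1 array and passed it through the other. Among them were IFI6, TAP1, PSMB9, APOL2, CYP4F12, CDHR5, CEACAM6, KRT15, LAT2, DUSP5, HSPA2, EMP3, ASPM, BPTF and ATRX.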

Other observations

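Some genes had probe sets above the filter on both sides of 0. Among the 75 higher genes with a second probe set these were CUX1, EBP, ENSA and USF2, and among the 179 lower ones 13, including EGFR, TRAF3, MAP3K7, NUP98 and HSP90B1. EBP, a sterol isomerase, read 2221.5 in antibody-treated and 837.2 in untreated cells on its brightest probe set, while its 3 probe sets ranged from -0.56 to 1.74. The EGF receptor, EGFR, read 101.2 and 223 on its brightest probe set, and its 3 probe sets above the filter ranged from -1.07 to 0.35.

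The interferon response motif was also in the promoters of higher genes outside the list of interferon-stimulated genes, namely TAP1, EMP3, CDC42EP3 and the amino acid transporter SLC7A7. Chromosomes 4, 13 and 19 were singled out after their values were seen, beside 5.04% of all genes higher and 7.31% lower. On chromosome 19, 31 of 434 genes were higher after antibody and 7 lower. On chromosome 4, 5 of 204 were higher and 30 lower, and on chromosome 13, 2 of 124 were higher and 19 lower.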
